A study of Homo sapiens with 6 samples.

Results

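The genes that write and read N6-methyladenosine (m6A), the most common internal modification of messenger RNA, were described in the VHL-deficient human kidney cancer line 786-O, derived from a clear cell renal carcinoma. They are the 10 rows of the deposited table whose symbol is METTL3, METTL14, METTL16, WTAP or VIRMA (5 writers) or YTHDF1, YTHDF2, YTHDF3, YTHDC1 or YTHDC2 (5 readers), out of 19669 named genes. Each symbol was found on 1 row. The libraries carry 3 labels: MT, for which the series title names a PHYHD1 protein without residues 107 to 130; WT, for which the title names PHYHD1-WT; and EV, cells with an empty vector. The design text instead calls WT untreated and MT overexpressing, so the libraries are called by their labels here. PHYHD1 belongs to the iron- and 2-oxoglutarate-dependent dioxygenases. All libraries come from this one cell line, grown as 3 dishes per condition, and the sources used here do not say whether the dishes were pooled, whether the cells are clones or which promoter drives the vector.

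Each label has 1 RNA-seq library and 1 Ribo-seq library, in which the stretches of mRNA covered by ribosomes (footprints) are sequenced, so 6 libraries in all. No difference below therefore has a replicate check and no p-value is given; each comparison is between libraries. RNA-seq values were read as FPKM (fragments per length of transcript and per size of library) and Ribo-seq values as TPM (scaled to length and to one total per library). PHYHD1 mRNA stood at 109.5 FPKM in MT, 118 FPKM in WT and 0.092 FPKM in EV, and its footprints at 905 TPM in MT, 222 TPM in WT and 0 in EV, so the WT value does not match cells called untreated. The renal lineage factor PAX8 had 75.9 to 94.0 FPKM, PAX2 7.65 to 8.54 FPKM, KRT8 195 to 224 FPKM and vimentin (VIM) 1746 to 1911 FPKM. PTPRC, PECAM1 and ALB, which mark leukocytes, endothelium and hepatocytes, had at most 0.071 FPKM. The fibroblast marker COL1A1 was higher, at 0.536 FPKM in MT, 1.54 FPKM in WT and 0.449 FPKM in EV, with footprints of 0.755 to 1.35 TPM. Read totals are unknown. Genes seen in 1 of the 3 Ribo-seq libraries had a median of 0.118 TPM in MT, 0.148 TPM in WT and 0.123 TPM in EV. Among 731 genes with low footprint values in both libraries, the most frequent quotient of MT over EV was 0.943. For WT over EV it was 1.28, among 694 genes. By these measures the WT footprint library was read as the coarsest.

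m6A is placed on nuclear RNA by a complex in which METTL3 carries the catalytic site, METTL14 is its inactive partner that helps bind RNA, WTAP brings the pair to nuclear speckles and VIRMA is a large scaffold subunit. METTL16 is a separate methyltransferase that acts on the U6 small nuclear RNA and on hairpins in the MAT2A mRNA. The YTH domain proteins bind the mark: YTHDC1 in the nucleus, YTHDF1, YTHDF2 and YTHDF3 in the cytoplasm, and YTHDC2, which also has a helicase domain and is best known from germ cells.

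The promoters are described first, as a feature that the choice of genes did not use. RefSeq windows of the GRCh38.p14 build were used for 8 of the 10 genes (10 windows, as WTAP and YTHDF2 have a pair each). Windows of VIRMA and YTHDF3 were not included, so the counts below do not describe these genes. The shares set beside the counts are over all windows and were not limited to a chosen set, nor to genes expressed in these cells, as the genes described here are. The 250 bases before each annotated start were searched on both strands for exact letters. The letters were those of the GC box GGGCGG, the CCAAT box, the TATA box TATAAA and the ETS core CGGAAG. The E-box CACGTG and the cyclic AMP response element TGACGTCA were searched too. A GC box and an ETS core can share bases. An observed-to-expected CpG ratio over 0.6 was found in 8 of the 10 windows, against 47.5% of all 35116 windows in the table, and GGGCGG in 7 of them against 42.6%. TATAAA was present in 1 window, that of METTL3, against 10.7% of all windows. CCAAT was in 5 windows (32.0% of all), CGGAAG in 4 (16.5%) and CACGTG in 1 (6.34%). TGACGTCA occurs in 1.65% of all windows and was present in both YTHDC1 and YTHDC2. A match of letters is a description and not evidence of a bound site. The windows of YTHDC1 (chr4:68350091-68350340, minus strand) and YTHDC2 (chr5:113513444-113513693, plus strand) are shown because they are the ones that hold TGACGTCA, and that of METTL16 (chr17:2511889-2512138, minus strand) because its mRNA varied most between libraries. Each is written 5′ to 3′ on the gene's strand, ends at the base before the start, and has TGACGTCA (YTHDC1, YTHDC2) or CCAAT (METTL16) in capitals.
YTHDC1: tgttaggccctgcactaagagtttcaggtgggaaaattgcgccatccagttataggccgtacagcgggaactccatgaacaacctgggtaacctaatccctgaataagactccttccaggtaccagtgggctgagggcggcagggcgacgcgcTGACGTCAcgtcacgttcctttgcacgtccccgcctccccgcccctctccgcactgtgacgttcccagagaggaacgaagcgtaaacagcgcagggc
YTHDC2: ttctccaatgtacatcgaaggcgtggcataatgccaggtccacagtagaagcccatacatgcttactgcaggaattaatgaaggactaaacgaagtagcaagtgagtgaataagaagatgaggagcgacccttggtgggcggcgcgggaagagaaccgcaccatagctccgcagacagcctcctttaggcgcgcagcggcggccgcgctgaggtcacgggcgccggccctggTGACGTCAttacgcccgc
METTL16: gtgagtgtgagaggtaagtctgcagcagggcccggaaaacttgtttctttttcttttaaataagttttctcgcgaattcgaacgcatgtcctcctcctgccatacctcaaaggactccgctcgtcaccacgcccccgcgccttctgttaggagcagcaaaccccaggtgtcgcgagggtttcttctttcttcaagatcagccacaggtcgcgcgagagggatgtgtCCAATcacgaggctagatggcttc
The capitals begin 97 bases before the start in YTHDC1, 18 bases before it in YTHDC2 and 24 bases before it in METTL16. The coordinates belong to the RefSeq build and not to hg18, the build that the submitters' processing notes name.

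All 10 genes were expressed in every library, at 5.69 FPKM or more and 6.44 TPM or more. On the FPKM scale WTAP (49.7 to 54.0) and YTHDF3 (49.4 to 50.9) had the highest mRNA levels and overlapped in range. VIRMA (34.5 to 43.7 FPKM) and YTHDC1 (37.8 to 39.4 FPKM) came next and overlapped too. Below them, without overlap between neighbours, stood YTHDF2, YTHDF1, METTL3, YTHDC2, METTL16 and METTL14, although the wide range of VIRMA also covered that of YTHDF2. METTL14 had the lowest mRNA level of the 10, below METTL3, its partner in the complex, in each library. The mean level of METTL14 over the 3 libraries lay above 30.0% of the genes that reached 1 FPKM, and that of WTAP above 85.9% of them.

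Footprint levels had another order. YTHDF1 led with 83.6 to 121 TPM, followed by WTAP (52.7 to 73.4 TPM), YTHDF3 (42.0 to 58.8 TPM) and YTHDF2 (39.2 to 43.5 TPM). YTHDC1, VIRMA and METTL3 followed, and the lowest were METTL14, METTL16 and YTHDC2. Of the 9 pairs of neighbours in this order 5 overlapped in range, against 2 of 9 in the mRNA order. VIRMA held rank 3 in mRNA and rank 6 in footprints, and YTHDF1 rank 6 in mRNA and rank 1 in footprints.

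**Figure D1:**
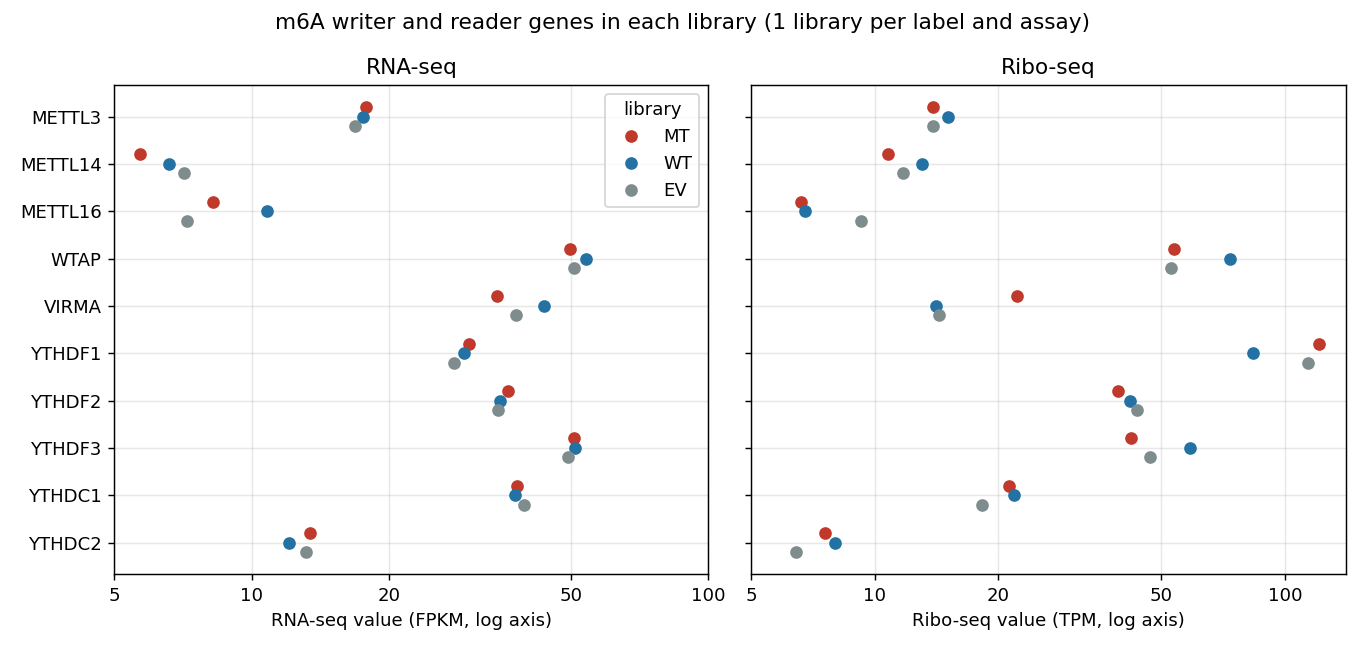
RNA-seq values in FPKM (left) and Ribo-seq values in TPM (right), both on log axes, of the 10 genes in the libraries labelled MT, WT and EV, 1 point per library. The mRNA points of each gene lie close together except for METTL16, VIRMA and METTL14, and the footprint points spread more, with YTHDF1 highest at 83.6 to 121 TPM.

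A gene was called higher or lower between libraries when its value plus 1 differed 2-fold or more; this threshold is a size and no test. None of the 10 genes was called in any of the 9 comparisons made (mRNA, footprints, and footprints relative to mRNA, each for MT over EV, WT over EV and MT over WT). The shares of all genes called in mRNA were 0.29% of 11016 for MT over EV, 0.499% of 11032 for WT over EV and 0.508% of 11013 for MT over WT. In footprints they were 2.83% of 10737, 3.36% of 10700 and 3.19% of 10752 for the same comparisons. A count of 0 of 10 is close to these background shares and is not particular to the m6A genes. In bulk libraries fewer cells expressing a gene and less RNA per cell cannot be told apart. The MT and WT comparisons share the EV library, and MT over WT shares a library with each of them.

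At a 1.5-fold difference the mRNA comparisons again held none of the 10 genes, against 2.31% of all genes for MT over EV, 2.63% for WT over EV and 3.23% for MT over WT. In footprints VIRMA passed 1.5-fold in MT over EV and in MT over WT, against 10.8% and 12.5% of all genes, and none of the 10 did in WT over EV, against 12.1%. With a pseudocount of 5 both VIRMA ratios fell below 1.5-fold, at 0.49 in MT over EV and 0.51 in MT over WT. The median log2 ratio of the 10 genes in mRNA was 0.03 for MT over EV, 0.05 for WT over EV and 0.00130 for MT over WT, beside -0.00551, -0.00559 and -0.00344 over all genes tested. In footprints the medians were 0.01, 0.12 and -0.08, beside 0.01, 0.03 and -0.01 over all genes. Writers and readers had median mRNA ratios of -0.18 and 0.04 in MT over WT, the widest gap between these groups of 5 in mRNA. The writer median was the METTL14 value, and a difference as large was found in 42.1% of 4320 genes within 2-fold of its level.

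**Figure D2:**
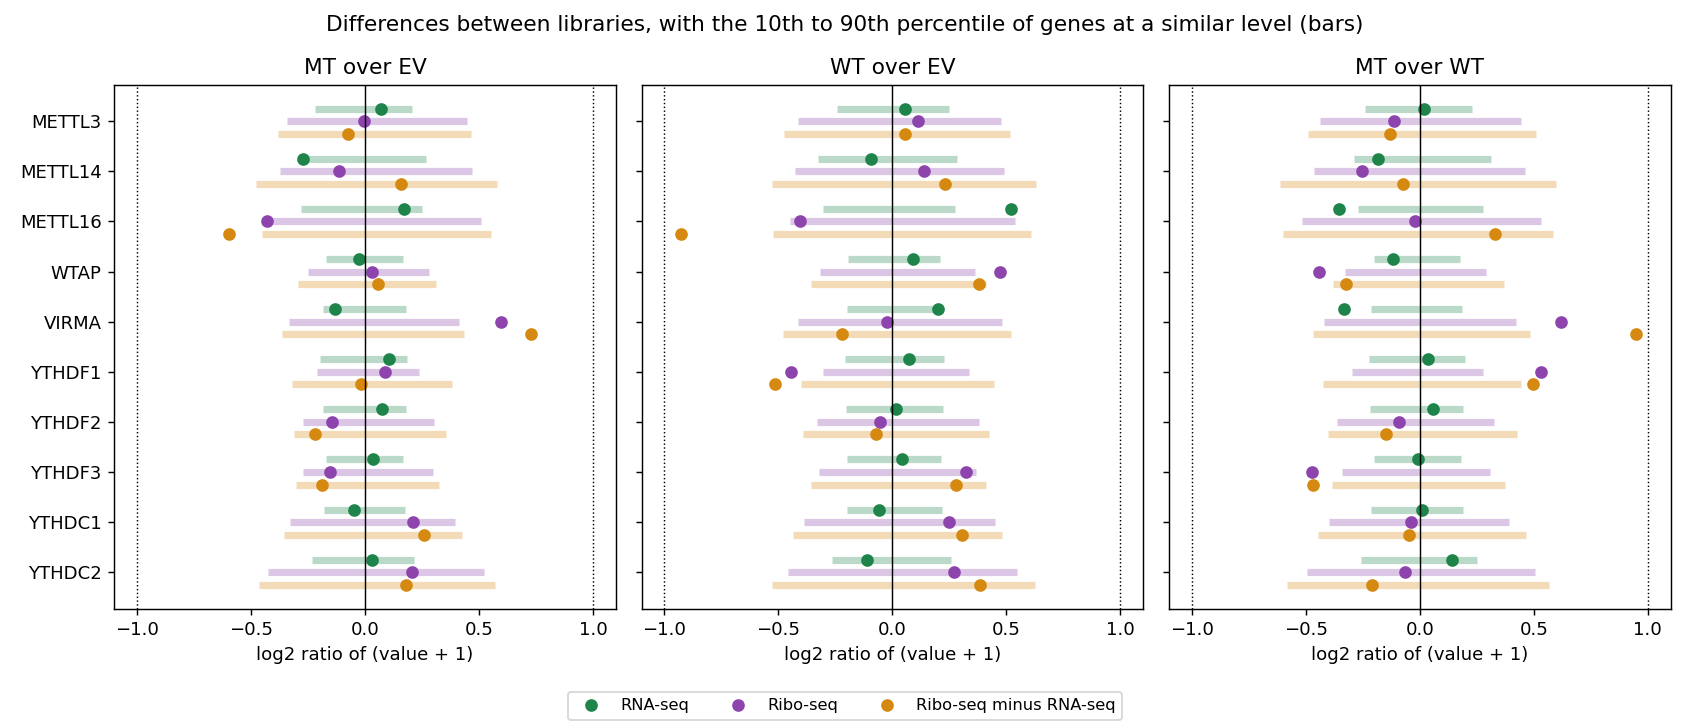
Log2 ratios of value plus 1 for MT over EV, WT over EV and MT over WT, for mRNA (green), footprints (purple) and footprints minus mRNA (orange), with bars from the 10th to the 90th percentile of genes within 2-fold of the same level and dotted lines at a 2-fold difference. No point reaches the dotted lines, and the points outside their bars belong to METTL16, VIRMA, WTAP, YTHDF1 and YTHDF3.

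METTL3, the catalytic subunit, was the steadiest of the writers. Its mRNA was 17.8 FPKM in MT, 17.5 FPKM in WT and 16.9 FPKM in EV, and its footprints 13.8 TPM in MT, 15.1 TPM in WT and 13.9 TPM in EV. The highest library exceeded the lowest by 1.05 times in mRNA and 1.09 times in footprints. METTL3 overlaps TOX4 in the annotation and the sources used here do not say whether counting used strand; TOX4 stood at 17.98 FPKM in MT, 23.3 FPKM in WT and 19.9 FPKM in EV.

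METTL14, which forms the heterodimer with METTL3, had 5.69 FPKM in MT, 6.59 FPKM in WT and 7.09 FPKM in EV. Its footprints stood at 10.8 TPM in MT, 13.03 TPM in WT and 11.7 TPM in EV. MT had the lowest value in both assays, with log2 ratios to EV of -0.27 in mRNA and -0.11 in footprints. An mRNA difference as large was found in 21.0% of 4361 genes at a similar level, meaning within 2-fold of the gene's level.

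The partners of the heterodimer were closer to each other in footprints than in mRNA. METTL3 mRNA was 3.12 times METTL14 mRNA in MT, 2.66 times in WT and 2.38 times in EV. In footprints the same quotient was 1.29 in MT, 1.16 in WT and 1.18 in EV. The ranges of the mRNA and footprint quotients did not overlap. Both units were read as scaled to length. The sources used here do not say which length each assay used, so the mRNA and footprint quotients may not be on the same footing.

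WTAP, the subunit that recruits the pair to nuclear speckles, had 49.7 FPKM in MT, 54.0 FPKM in WT and 50.7 FPKM in EV. Its footprints stood at 53.8 TPM in MT, 73.4 TPM in WT and 52.7 TPM in EV. The WT footprint library was thus the one that stood apart, with a log2 ratio to EV of 0.47, as large as in 8.71% of 2100 genes at a similar level. The mRNA ratio of the same libraries was 0.09. WTAP overlaps SOD2 in the annotation, and SOD2 footprints were 126.5 TPM in MT, 131.6 TPM in WT and 160.5 TPM in EV. Whether reads of one gene were counted for the other was not tested, and the use of strand is not given.

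VIRMA, the scaffold of the complex, had the largest footprint difference among the 10 genes, except with a pseudocount of 5, where YTHDF1 in MT over WT (0.513) was slightly larger than VIRMA (0.508). Its footprints stood at 22.2 TPM in MT, 14.1 TPM in WT and 14.3 TPM in EV, so that the WT and EV libraries lay together and MT above them. Its mRNA had another order, with 34.5 FPKM in MT, 43.7 FPKM in WT and 37.9 FPKM in EV. The footprint log2 ratio was 0.60 for MT over EV and 0.62 for MT over WT, and the mRNA ratio -0.13 and -0.33. Footprint ratios as large were found in 7.52% of 3429 and 8.14% of 3477 genes at a similar level.

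METTL16, the U6 and MAT2A methyltransferase outside the complex, had the largest mRNA difference. Its mRNA was 8.22 FPKM in MT, 10.8 FPKM in WT and 7.20 FPKM in EV, so that WT was the highest. Its footprints stood at 6.62 TPM in MT, 6.74 TPM in WT and 9.26 TPM in EV, so that here EV was the highest. The log2 ratio of WT over EV was 0.52 in mRNA, as large as in 3.37% of 4714 genes at a similar level, and -0.41 in footprints, as large as in 28.1% of 3787 genes. MAT2A, which encodes the S-adenosylmethionine synthetase and is a target of METTL16, stood at 108.5 FPKM in MT, 116 FPKM in WT and 106 FPKM in EV, with 85.4, 90.8 and 93.1 TPM of footprints in MT, WT and EV.

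**Figure D3:**
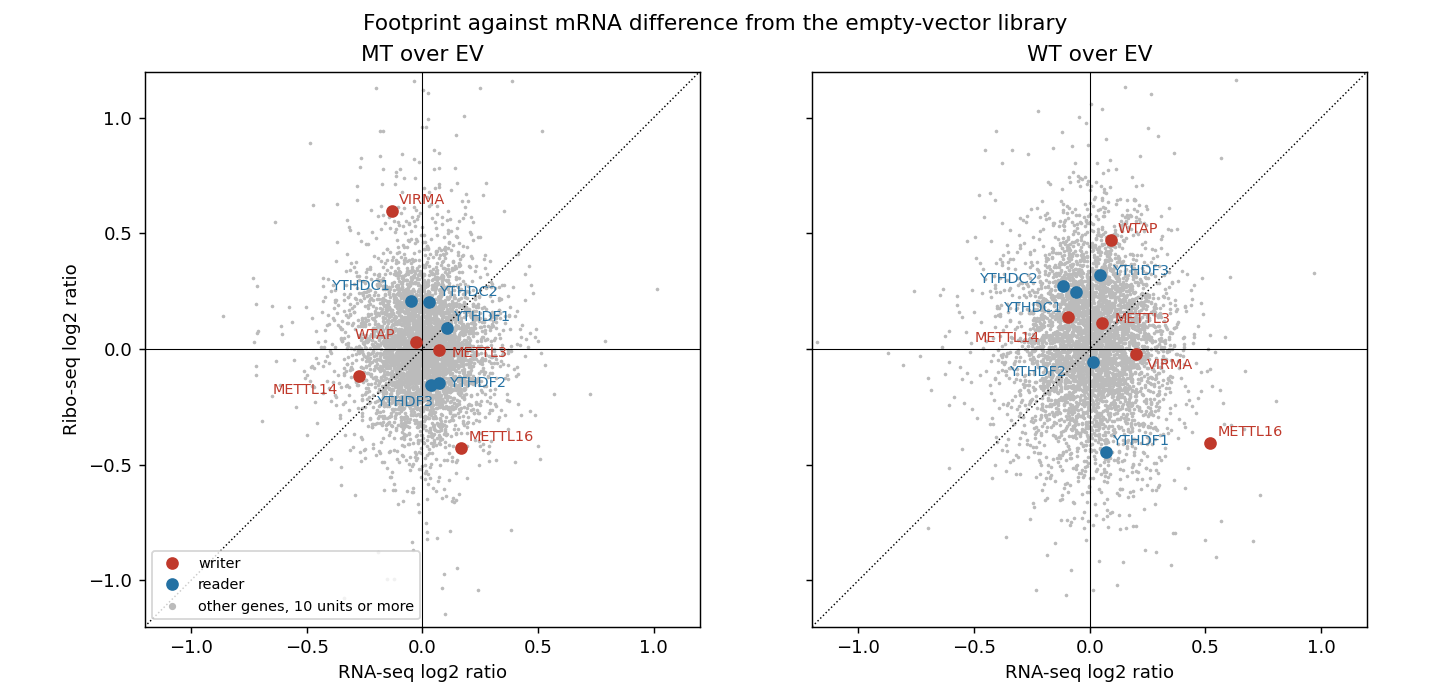
Footprint log2 ratio (vertical) against mRNA log2 ratio (horizontal) for MT over EV (left) and WT over EV (right), with writers in red, readers in blue and other genes with 10 units or more in all 6 libraries in grey; the dotted line marks equal ratios and grey points beyond the axes are not drawn. VIRMA lies above the line in MT over EV at 0.60 in footprints and METTL16 below it in WT over EV at -0.41.

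The cytoplasmic readers YTHDF1, YTHDF2 and YTHDF3 had steady mRNA. YTHDF1, known for promoting translation of bound mRNAs in some cells, had 29.9 FPKM in MT, 29.2 FPKM in WT and 27.7 FPKM in EV. YTHDF2, which recruits the CCR4-NOT deadenylase to bound mRNAs, had 36.4 FPKM in MT, 34.9 FPKM in WT and 34.6 FPKM in EV. YTHDF3, which acts with the other two, had 50.7 FPKM in MT, 50.9 FPKM in WT and 49.4 FPKM in EV. The log2 mRNA ratios of these paralogs lay between -0.01 and 0.11 over all 3 comparisons.

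Footprints of YTHDF1 stood at 121 TPM in MT, 83.6 TPM in WT and 114 TPM in EV, and the WT library was the low one. Those of YTHDF3 stood at 42.0 TPM in MT, 58.8 TPM in WT and 46.9 TPM in EV, and the WT library was the high one. YTHDF2 had 39.2 TPM in MT, 41.8 TPM in WT and 43.5 TPM in EV. For YTHDF1 the log2 ratio was 0.53 in MT over WT and -0.44 in WT over EV, as large as in 3.32% of 1627 and 7.90% of 1658 genes at a similar level. For YTHDF3 the ratio was -0.47 in MT over WT and 0.32 in WT over EV.

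As shares of their summed level the mRNAs of YTHDF1, YTHDF2 and YTHDF3 kept nearly the same proportions. YTHDF1 made up 25.6% of the summed FPKM in MT, 25.4% in WT and 24.8% in EV, and YTHDF3 43.3% in MT, 44.3% in WT and 44.2% in EV. In footprints YTHDF1 made up 59.9% of the summed TPM in MT, 45.4% in WT and 55.8% in EV. YTHDF3 made up 20.7% in MT, 31.9% in WT and 22.9% in EV. The summed footprints were 203 TPM in MT, 184 TPM in WT and 204 TPM in EV. Pseudogenes of all 3 genes and of WTAP are annotated but are not among the named rows used here, and how reads shared with them or between the paralogs were counted is not given, so these values carry that uncertainty.

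**Figure D4:**
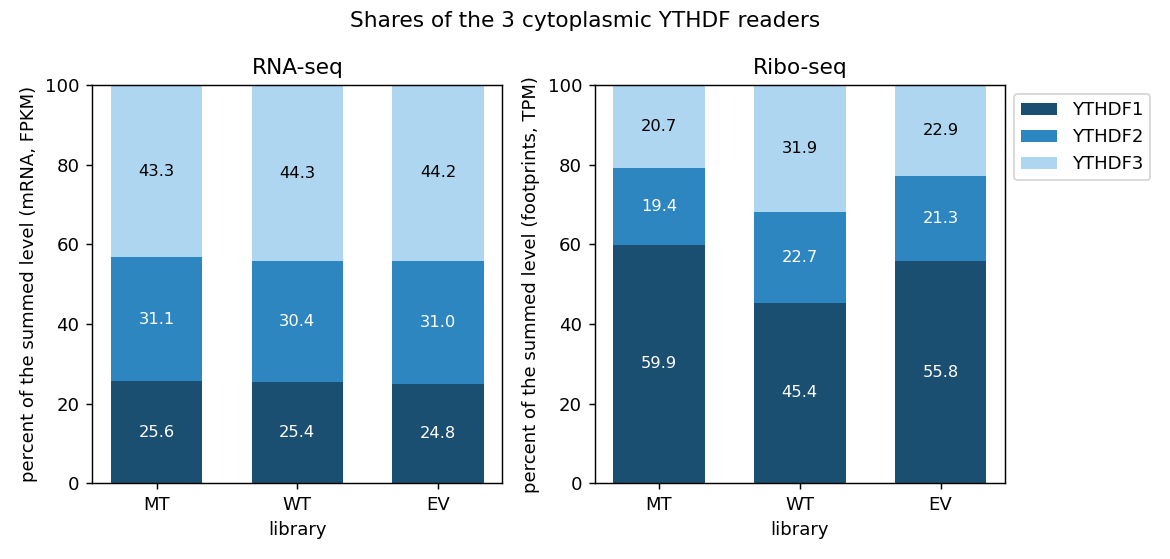
Percent of the summed level of YTHDF1, YTHDF2 and YTHDF3 that each gene makes up in the libraries labelled MT, WT and EV, from FPKM (left) and TPM (right), 1 bar per library. The mRNA bars are alike, and in footprints the share of YTHDF1 is 45.4% in WT, against 59.9% in MT and 55.8% in EV.

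YTHDC1, the nuclear reader that acts in splicing and export, had 38.1 FPKM in MT, 37.8 FPKM in WT and 39.4 FPKM in EV. Its footprints stood at 21.2 TPM in MT, 21.8 TPM in WT and 18.2 TPM in EV. YTHDC2, the helicase reader, had 13.4 FPKM in MT, 12.1 FPKM in WT and 13.1 FPKM in EV, with footprints of 7.57 TPM in MT, 7.98 TPM in WT and 6.44 TPM in EV. In both genes, as in WTAP, EV was the lowest footprint library and WT the highest. The footprint log2 ratios to EV were 0.21 in MT and 0.25 in WT for YTHDC1, and 0.21 in MT and 0.27 in WT for YTHDC2. For YTHDC1, ratios as large occurred in 42.5% (MT) and 41.2% (WT) of genes at a similar level, so these ratios lie well inside the spread of other genes. The quotient of YTHDC1 over YTHDC2 was 2.84 in MT, 3.13 in WT and 2.997 in EV in mRNA and 2.80 in MT, 2.73 in WT and 2.83 in EV in footprints.

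The footprint-to-mRNA quotient was expressed relative to the median gene of the same library, since FPKM and TPM have different totals. Differences between genes in this quotient also depend on the length each assay used, which is not given. For the YTHDF genes and WTAP the uncertainty about shared reads applies here too. YTHDF1 had the highest quotient of the 10 genes, 3.66 times the median gene in MT, 2.54 times in WT and 3.74 times in EV, which in EV lay above 91.8% of 10068 genes. METTL14 followed with 1.71 times in MT, 1.75 times in WT and 1.51 times in EV. WTAP, YTHDF2 and YTHDF3 stayed between 0.749 and 1.205 times the median gene, and METTL3 between 0.703 and 0.761 times. YTHDC1 and YTHDC2 were low in all 3 libraries, at 0.503 and 0.509 times in MT, 0.511 and 0.586 times in WT, and 0.421 and 0.445 times in EV. VIRMA was at 0.580 times in MT, 0.286 times in WT and 0.344 times in EV, so that the WT value lay above 9.59% of genes and the MT value above 28.2%. METTL16 was at 0.727 times in MT, 0.555 times in WT and 1.17 times in EV, and was the only one of the 10 with EV above and both other libraries below the median gene.

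**Figure D5:**
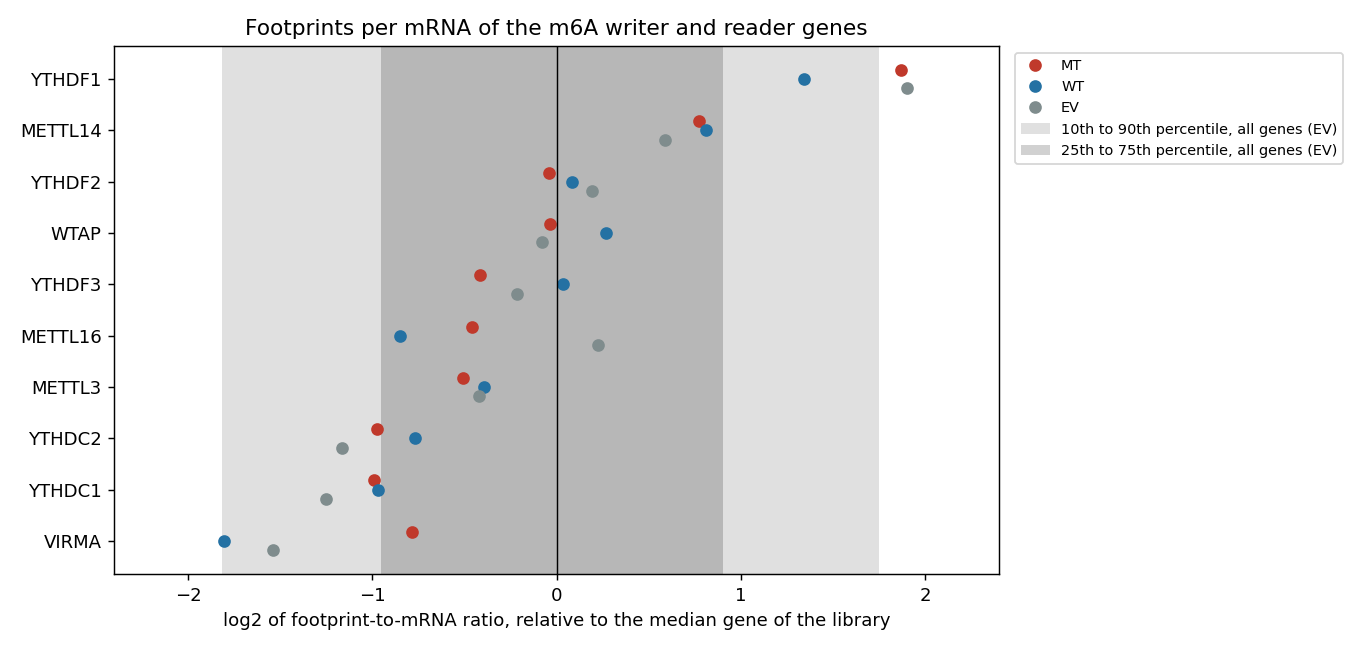
Log2 of the footprint-to-mRNA quotient of each gene relative to the median gene of the library (horizontal), for the libraries labelled MT, WT and EV, with grey bands for the middle 50% and 80% of all genes in EV. YTHDF1 lies highest, at 3.66, 2.54 and 3.74 times the median gene in MT, WT and EV, and VIRMA lowest in WT and EV.

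Translational efficiency, taken as the footprint log2 ratio minus the mRNA log2 ratio, brings these differences together. None of the 10 genes passed 2-fold, against 3.51% of 10331 genes for MT over EV, 4.21% of 10335 for WT over EV and 4.82% of 10352 for MT over WT. At 1.5-fold VIRMA (0.73) and METTL16 (-0.60) passed in MT over EV, METTL16 (-0.93) in WT over EV, and VIRMA (0.95) in MT over WT, against 13.7%, 16.9% and 17.7% of all genes. These 1 or 2 of 10 genes are close to the shares of all genes. Differences as large were found in 4.29% of 3729 genes at a similar level for VIRMA in MT over EV, in 2.58% of 3757 for VIRMA in MT over WT, in 13.999% of 4379 for METTL16 in MT over EV and in 5.18% of 4363 for METTL16 in WT over EV. For translational efficiency the level was the lower of the mRNA and footprint levels. The small percentages here and above come from 30 values each for mRNA, footprints and translational efficiency. A percentage of 10% or fewer was found for 2, 7 and 3 of these values. The values share libraries and are not independent. With a pseudocount of 5 the METTL16 value in MT over EV became -0.41, below 1.5-fold, and after rescaling without mitochondrially encoded genes and PHYHD1 it was -0.57, also below it. With a pseudocount of 0.1 in place of 1 the METTL16 value became -1.03 and passed 2-fold. The other genes lay between -0.51 and 0.39 in WT over EV and between -0.22 and 0.26 in MT over EV, with YTHDF1 the lowest of them in WT over EV and YTHDC2 the highest.

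The remaining genes of the m6A pathway were taken from a list of 31, covering accessory subunits of the writer complex, other methyltransferases, the demethylases, other m6A-binding proteins, effectors and enzymes of S-adenosylmethionine supply. Of these 30 reached 1 unit in every comparison, and IGF2BP1 did not in any. None passed 2-fold in mRNA or footprints. In translational efficiency 1 of 30 passed, PCIF1, which methylates adenosines next to the mRNA cap, with -1.05 in MT over WT, against 4.82% of 10352 genes, so this count is close to the background. With a pseudocount of 5 the PCIF1 value was -0.59 and did not pass. PCIF1 footprints stood at 1.90 TPM in MT, 3.78 TPM in WT and 2.29 TPM in EV, low values for which the unknown read totals matter most. The demethylase genes lay on either side in footprint level, FTO with 103 TPM in MT, 99.1 TPM in WT and 98.9 TPM in EV, and ALKBH5 with 8.37 TPM in MT, 7.63 TPM in WT and 10.3 TPM in EV. Their mRNA levels were alike, at 31.5 FPKM in MT, 34.6 FPKM in WT and 31.3 FPKM in EV for FTO and at 28.7 FPKM in MT, 31.5 FPKM in WT and 28.0 FPKM in EV for ALKBH5. The median log2 ratio of the 30 genes was 0.01 in mRNA and -0.05 in footprints for MT over EV, and 0.03 and 0.04 for WT over EV.

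The genes whose pattern was most like that of METTL3 and of METTL16 were taken by Euclidean distance over 4 log2 ratios (mRNA and footprints, MT and WT over EV) among the 4722 genes with 10 units or more in all 6 libraries. For METTL3 they were CAPZA1, TRIM27 and NNMT, at distances of 0.0289, 0.0291 and 0.0324, where the median gene lay at 0.353. For METTL16 they were SF3A1, RPS6KA4 and THBS1, at distances of 0.228, 0.261 and 0.273, where the median gene lay at 0.871. METTL16 itself did not reach 10 units in every library, so its ratios are less certain than those of the genes searched. The nearest of so many genes always lie below the median distance, so that contrast is no measure of likeness. SF3A1 had 31.2 FPKM in MT, 36.6 FPKM in WT and 28.5 FPKM in EV, and 36.2 TPM in MT, 38.9 TPM in WT and 47.3 TPM in EV.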

How the data were processed

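RNA-seq and Ribo-seq were performed on 786-O cells, 1 library for each label in each assay. TRIzol was used to extract RNA, and for Ribo-seq cells received cycloheximide in the medium before lysis and RNase I digestion, with rRNA removed by antisense probes, per the labels' protocols. The submitters' processing notes name the build hg18; for the aligner, the counting and the annotation the sources used here give nothing. The header gives no unit. The deposited RNA-seq columns were read as FPKM because they sum to 459938 to 469859. The deposited Ribo-seq columns were read as TPM because each sums to 1000000, a total that values not scaled to length could also have. Neither holds read totals, so counting error cannot be given.

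Of 20307 rows, 605 with no symbol (0.153% to 0.158% of RNA-seq values, 0.513% to 0.564% of Ribo-seq values) and 7 symbols with differing rows were left out. Values were compared as deposited, as log2(value + 1), for genes at 1 unit or more in a library compared. This scale understates changes of low genes. Translational efficiency is a difference of log2 ratios with no model. The calculation was tested on simulated data with assumed read depths and planted changes larger than 2-fold in genes at 10 units or more. That test does not cover differences near 2-fold or genes below 10 units. The genes and lists were chosen with earlier results of these data known. All 10 genes are named, with PHYHD1, listed pathway genes past 2-fold, FTO, ALKBH5, MAT2A and the 3 nearest patterns; TOX4 and SOD2 were added because they overlap. Alternatives changed the pseudocount, the minimum, the scaling and the size of difference called. Python 3.11.15, numpy 2.4.6, pandas 2.3.3 and matplotlib 3.10.9 were used.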

Additional observations from a re-analysis of the deposited data

How the results depend on the processing

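Pseudocounts of 0.1 and 5, a minimum of 10 units or none, centring on the median gene and rescaling without mitochondrially encoded genes and PHYHD1 left the count of called genes at 0 in every comparison, except that a pseudocount of 0.1 gave 1 (METTL16) for translational efficiency in WT over EV. A 1.5-fold rule gave 1 for footprints in MT over EV, 1 for footprints in MT over WT, and for translational efficiency 2 in MT over EV, 1 in WT over EV and 1 in MT over WT, as a smaller difference was called. All 6 values past 1.5-fold (a log2 ratio of 0.585) kept their sign in every setting that gave them, but 3 fell below it: with a pseudocount of 5 VIRMA footprints were 0.49 in MT over EV and 0.51 in MT over WT, and METTL16 translational efficiency in MT over EV was -0.41, and -0.57 after rescaling. Median ratios stayed within -0.13 and 0.17. With a minimum of 10 units 8 or 9 of the 10 genes gave a value in mRNA, 8 in footprints and 7 in translational efficiency; those lost were METTL14, METTL16 and YTHDC2. No paired analysis was possible because each label has 1 library per assay. One library per label leaves library differences and condition differences impossible to tell apart, and unknown read totals limit the lowest genes, METTL14, METTL16 and YTHDC2.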
